A study of Homo sapiens with 6 samples.

Results

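Isoforms of protein-coding genes whose predicted reading frame ends at a premature stop codon were examined in K562 cells and in the extracellular vesicles (EVs) that they release. The members are the isoforms that belong to a gene with an Ensembl identifier, whose gene class is protein coding and which the study's isoform caller, FLAIR, labelled as carrying a premature termination codon. They number 1195 of the 8829 isoforms of coding genes (13.5%) and of the 13208 isoforms in the deposited table, and they come from 834 of 4942 coding genes (16.9%). The same 834 genes hold 1603 productive isoforms, in which the predicted stop is not premature, and these served as the comparison. The remaining isoforms of coding genes had no start codon (714) or no stop codon (93) in the prediction.

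A stop codon is read as premature when exon junctions still follow it at some distance. In the textbook account of nonsense-mediated decay, the exon junction complex left at such a junction marks the mRNA for degradation once a ribosome has ended translation upstream of it. Cells also use the pathway on purpose, as when a splicing factor directs a poison exon with a stop codon into its own transcript.

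K562 is a human cell line from a chronic myeloid leukaemia. Libraries were made from whole cells (WC) and from EVs collected from the conditioned medium by size exclusion chromatography, with 3 libraries in each group, and every sample was wild type and untreated. RNA was primed at the poly(A) tail, amplified as cDNA by PCR and read on a nanopore device. The methods describe 3 replicate cultures in medium with vesicle-depleted serum, from which medium and a sample of cells were collected, and the 2 libraries of a replicate ran on the same flow cell.

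Gene counts summed to between 2480560 and 3178211 in WC libraries and to between 560157 and 881338 in EV libraries, so low genes are measured less precisely in EVs. Of 14 erythroid genes fixed as markers of K562, all had a count. Of 12 genes of other lineages, 5 had none in any library, while KRT19, a keratin gene, had 740 to 857 counts per WC library and 39 to 115 per EV library, out of 3539 and 325 for the whole list over the WC and EV libraries. Protein-coding genes held 55.2% to 56.6% of the counts of WC libraries and 47.5% to 48.5% of those of EV libraries. Within each group every pair of libraries differed by more than counting noise, with a chi-square of 2.27 to 3.79 per degree of freedom between WC libraries. EV replicate 1 stood apart from EV replicates 2 and 3 (4.35 and 4.88), which were closer to each other (1.20).

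The stop codons that carry the main examples are given here as 30 spliced bases on the strand of the transcript, from hg38, with the stop codon in capitals. The antizyme and selenoprotein windows are shown because the stop codon there has a known second reading. The RPS2 window belongs to the most abundant member, and the RPL12 windows set premature stops beside the stop of the leading productive isoform, meaning the productive isoform of the gene with the highest mean. The RPL37, SPN and HNRNPA2B1 windows are stops at the usual end of a coding sequence that became premature through a junction behind them, and SRSF3 shows a poison exon.
OAZ1, unannotated isoform: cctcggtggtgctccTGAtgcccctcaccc
GPX4-201: aacgtggcctcccagTGAggcaagaccgaa
SELENOH-204: gagcattgcactagcTGAcgcgtctatggg
SELENOW-211: gtttattgtggcgctTGAggctacaagtcc
RPS2-215: tggcctctctttcctTGAggggtgcaacag
RPL12, unannotated isoform: tccaaaaaaagttggTGAtgacattgccaa
RPL12-204: agcctttctgggcctTAGcttcttcacgtg
RPL12-201, productive: gaatgcccagccagtTAAgcacaaaggaaa
RPL37, unannotated isoform: gcatccagttcatctTAAgaatgtcaacga
SPN-205: gacggggctgcccctTAAgtgtcggtgaat
HNRNPA2B1-222: gggaggagccgatacTGAgcttcttcctat
SRSF3-203: cttctcaccaccctcTGAatctgcattagc

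These stop codons lie at chr19:2271443-2271445 (OAZ1, plus strand), chr19:1105403-1105405 (GPX4, plus), chr11:57741816-57741818 (SELENOH, plus) and chr19:47780732-47780734 (SELENOW, plus). The RPS2 stop lies on the minus strand of chromosome 16, at 1962987-1962989 in exon 3 of the 5 exons of RPS2-215. The RPL12 stops lie on the minus strand of chromosome 9, at 127449689-127449691, 127451120-127451122 and 127447721-127447723 in the order shown. The other stops are at chr5:40832504-40832506 (RPL37, minus), chr16:29664929-29664931 (SPN, plus), chr7:26192516-26192518 (HNRNPA2B1, minus) and chr6:36599852-36599854 (SRSF3, plus).

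Premature-stop isoforms were many but mostly rare. The deposited table gives each isoform a single mean of normalised read counts over the 6 libraries, pooled over WC and EV, so isoform values below have no replicate error and cannot be split between cells and vesicles. The 1195 members held 5.95% of the summed mean of all isoforms of coding genes, against 89.8% for productive isoforms, 3.92% for isoforms without a start and 0.341% for those without a stop. The median mean was 8.81 over the members and 16.6 over the productive isoforms of the same genes. Over all productive isoforms of coding genes it was 10.3. Only 32 members reached a mean of 100, and the 20 most abundant held 33.8% of the members' summed mean.

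Most members were absent from the annotation by name. The isoform caller gave 274 of them the identifier of an annotated transcript, of which 168 are classed as nonsense-mediated decay transcripts, 46 as processed transcripts, 44 as retained introns and 16 as protein coding. The other 921 (77.1%) had no annotated identifier, compared with 34.4% of the productive isoforms of these genes. In GENCODE v44, the stop codon itself was unannotated for 776 members (64.9%), was the stop of decay transcripts only for 290 (24.3%) and was the stop of some coding transcript for 129 (10.8%).

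A premature stop by the rule lies more than 55 nt before the last exon junction. The nearest member stopped 56 nt before it, and the productive isoform of a coding gene closest to the limit stopped 54 nt before it. Only 14 members lay within 65 nt of the last junction. The median distance was 403 nt, with 3 junctions left behind the stop, while 307 members (25.7%) had only 1. Members and productive isoforms of the same genes had 7 exons each at the median, and spliced lengths of 1576 and 1232 nt. Their reading frames measured 327 and 732 nt at the median, and the stop fell at 29.4% and 78.9% of the spliced length. These frame and stop values follow in part from the rule that chose the members.

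**Figure D1:**
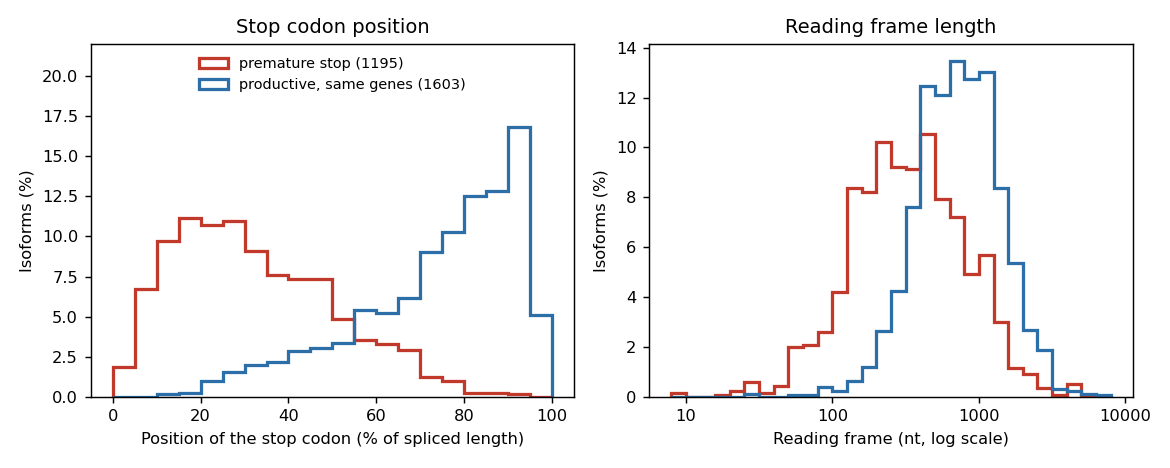
Position of the stop codon as a percentage of the spliced length (left) and length of the predicted reading frame in nt on a log axis (right), as the percentage of isoforms per bin. Lines stand for the 1195 premature-stop isoforms and the 1603 productive isoforms of the same genes. Premature stops centre on 29.4% of the length and productive stops on 78.9%.

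TGA was the stop codon of 648 of the 1193 members whose stop could be read from the genome (54.3%), TAA of 336 (28.2%) and TAG of 209 (17.5%). In the productive isoforms of the same genes TAA was the more frequent, with 672 of 1602 (41.9%) against 650 for TGA (40.6%) and 280 for TAG (17.5%). Isoforms of a gene often share a stop, so these shares were not tested.

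Against the leading productive isoform of the gene, available for 992 members in 656 genes, the usual member kept the start codon and lost the end of the frame. The start codon was the same in 918 members (92.5%) and the stop codon in 29 (2.92%). The frame had a median of 42.8% of the length of the leading productive frame, and 585 members fell below 50%. The spliced length differed by a median of 82.5 nt more, with 593 members longer and 399 shorter, and the exon count by a median of -1. For comparison, the other 947 productive isoforms of these genes shared the start in 73.8% and the stop in 81.1% of cases.

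Intron retention was more frequent among the members than among the other productive isoforms of the same genes. At least 1 whole intron of the leading productive isoform was kept inside an exon in 270 members (27.2%) and in 25 of the 947 other productive isoforms (2.64%). Where retention was the only such event (242 members), 218 had the stop codon inside the intron itself. The median member of this kind was 371 nt longer than the leading isoform. A stop codon inside a retained intron is in most of these members what made the isoform premature, so the contrast with productive isoforms rests partly on how the classes are defined, and it was not tested.

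The retained introns were short and mostly internal. In the 231 members with a single retained intron its median length was 248 nt, against 1168 nt over the 5329 introns of the leading productive isoforms, and 69.3% were under 500 nt against 29.7%. The part of read length in this difference was not tested. The first intron was the retained one in 8 cases, the last in 8 and an internal intron in 215. A stop inside a retained last intron usually has no junction behind it, so the rule that chose the members bears on this split. The same split over all introns of the leading isoforms was not counted. Where the stop lay in the intron (195 members), it ended a median of 39.0 nt after the intron's first base, and 155 of them (79.5%) within 100 nt. Among the more abundant cases were EIF1-205 with a mean of 555, an RPS6 isoform with 216, RPS21 with 191 and FTL, the ferritin light chain, with 158.

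Skipped exons were the most frequent single kind, in 302 members (30.4%) and 342 other productive isoforms (36.1%). Members and other productive isoforms differed in the length that was skipped. Among isoforms that joined existing splice sites across the skipped part, the skipped length was not a multiple of 3 in 268 of 269 members (99.6%) and in 125 of 321 other productive isoforms (38.9%). Skipping a length that is not a multiple of 3 shifts the reading frame, and the prediction of a premature stop follows from the frame, so this contrast rests partly on how the classes are defined. The largest examples were the unannotated RPL12 isoform, which skips 74 nt and keeps a frame of 57 nt, an RPS27A isoform that skips 55 nt and a TOMM20 isoform that skips 47 nt.

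An extra exon was found in 111 members (11.2%) and 79 other productive isoforms (8.34%), and 78 of the 111 ended their frame inside it. For 54 of the 111 the stop codon is annotated for a decay transcript only, compared with 5 of the 242 retained-intron members and 56 of the 302 members with a skipped exon. A single extra exon had a length that is not a multiple of 3 in 60 of 91 members (65.9%) and in 32 of 68 other productive isoforms (47.1%), with the same limit. SRSF3-203, an SR splicing factor transcript, carries an extra exon of 456 nt that holds the stop shown above. RPL29-205 carries 85 nt extra, SUB1-209 carries 302 nt and SAT1-208, from the polyamine catabolic enzyme spermidine acetyltransferase, carries 110 nt.

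A further 296 members (29.8%) differed only by other splice sites or terminal exons, and this group held 50.8% of the summed mean of the compared members, since it includes RPS2-215 and the RPL37 isoform. Among isoforms with a single site moved by at most 100 nt, the move was not a multiple of 3 in 147 of 152 members (96.7%) and in 109 of 224 other productive isoforms (48.7%), a contrast that again rests partly on the definition of the classes. The remaining members combined several events (38) or had no new intron (3).

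**Figure D2:**
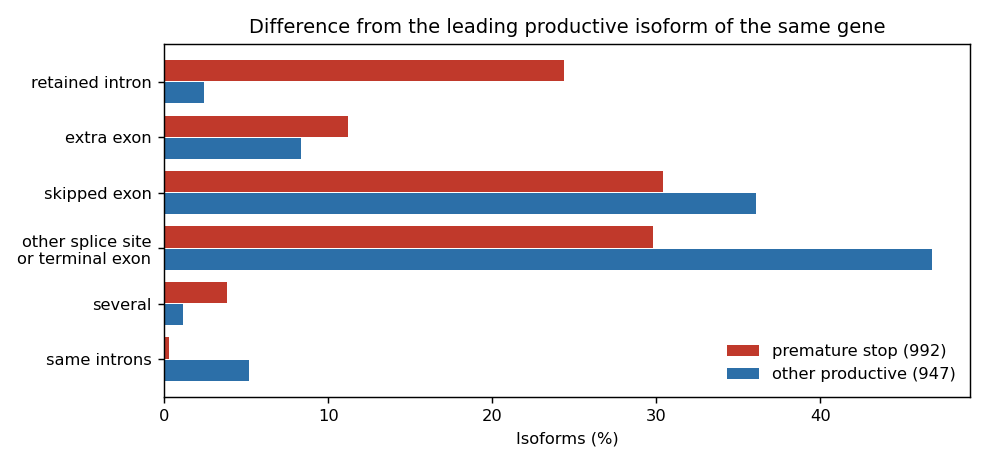
Kind of difference from the leading productive isoform of the same gene, as the percentage of 992 premature-stop isoforms and of 947 other productive isoforms of these genes. Retained introns alone make up 24.4% of the former and 2.43% of the latter, while other splice sites and terminal exons make up 29.8% and 46.8%.

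New introns of the members, meaning introns that the leading isoform lacks, were mostly annotated. Of 1061 such introns 330 were not in GENCODE v44, of which 323 joined annotated splice sites and 313 had the GT-AG ends of the usual intron. In the other productive isoforms 309 of 1074 were not annotated, with 288 between annotated sites and 277 with GT-AG ends. A site shifted by at most 12 nt from the leading isoform's was found in 111 members and 120 other productive isoforms.

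Small shifts accumulated in RPL19, a large-subunit ribosomal protein gene, which had the most members. It held 24 premature-stop isoforms among 30, of which 23 had no annotated identifier. Their spliced lengths ran from 656 to 1062 nt around the 673 nt of RPL19-201, and 19 differed from it by at most 15 nt. They shared only 5 stop positions, used by 9, 6, 4, 4 and 1 isoforms. Their means ran from 8.68 to 87.0 and summed to 995, or 44.4% of the gene's isoforms, beside 797 for RPL19-201 alone.

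In 29 members of 27 genes the stop was that of the leading productive isoform, and a junction behind it made it premature. The distance to the last junction had a median of 211 nt and ran from 62 nt in RPL37 to 2615 nt in RBM8A, an exon junction complex gene. The RPL37 isoform, 1984 nt in 5 exons, had a mean of 1019 against 7.83 for RPL37-201, and it spans chr5:40826325-40835186. For HNRNPA2B1, an hnRNP gene, HNRNPA2B1-222 had a mean of 46.2 with 1367 nt between stop and last junction. The histone transcript H2AC6-201 had 88.2 and ACTG1-213, from gamma-actin, 75.2.

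Stop codons with a known second reading came up among the members. OAZ1 encodes antizyme, the inhibitor of polyamine synthesis, whose full-length product requires ribosomes to shift frame at a stop codon early in the message. All 5 OAZ1 isoforms in the table were members, with means of 330, 93.7, 52.1, 10.2 and 7.51, and all ended at the same TGA. GPX4 encodes glutathione peroxidase, a selenoprotein in which a TGA codon is read as selenocysteine. All 6 GPX4 isoforms were members, with means from 7.16 to 172 that summed to 326, and all stopped at the annotated selenocysteine codon.

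The same held for other selenoproteins. GENCODE v44 annotates selenocysteine codons in 25 genes, of which 13 have isoforms in the table, 25 isoforms in all. Of these 13 were members, from 6 genes, and 11 members of 5 genes stopped exactly at the annotated codon, a TGA in all 11. They were the 6 GPX4 isoforms, SELENOH-204 (mean 69.9) and SELENOH-202 (9.36), SELENOP-214 (25.9), SELENOW-211 (24.6) and SELENOF-201 (21.6). Selenocysteine members summed to a mean of 477 and OAZ1 members to 493, out of 27465 for all members.

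Ribosomal protein genes supplied much of the abundance. Of 81 cytosolic ribosomal protein genes 48 had a premature-stop isoform, 128 members (10.7%) with 42.0% of the members' summed mean, and 13 of the 20 most abundant members were theirs. Within the list, premature-stop isoforms held 5.20% of the isoform mean, close to the 5.95% of all coding genes. RPS2-215, from a small-subunit gene, had by far the highest mean of any member, 3360, or 12.2% of the members' sum. It differs from RPS2-202 by 413 nt at a splice site, has a frame of 537 nt instead of 708 nt, and is annotated as a retained-intron transcript. The 3 RPS2 members shared its stop and held 94.5% of the gene's isoform mean, while RPS2-202 had a mean of 127. How much of an isoform a read had to cover is not given in the sources used here, so this share is uncertain.

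RPL12 held 6 members with 35.9% of its isoform mean, led by the 2 shown above at 514 and 409, while RPL12-201 stood at 1918. RPS13-204 had 296 with a splice site moved by 4 nt, RPL41 had 273 (RPL41-201, beside 5571 for RPL41-202), and the most abundant RPS27A, RPS3, RPS6, RPLP0 and RPS21 members had 266, 235, 216, 214 and 191. The leading productive isoforms of these genes stood at 1743 to 5571. A second RPS6 member, with another retained intron, had 173. RPS18-207, with 202, was assigned to a copy of RPS18 on an alternate scaffold, as were 17 members in all to alternate or patch scaffolds.

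**Figure D3:**
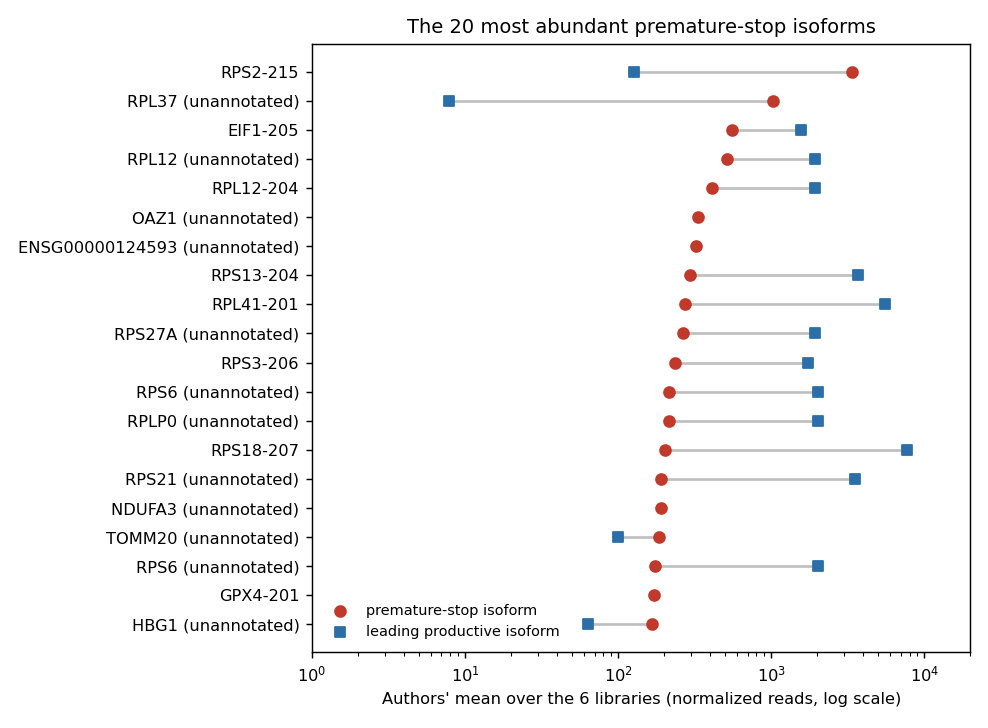
Authors' mean over the 6 libraries, in normalised reads on a log axis, of the 20 most abundant premature-stop isoforms (circles) and of the leading productive isoform of the same gene (squares, where the table holds one). RPS2-215 at 3360, RPL37 at 1019, TOMM20 at 185 and HBG1 at 166 lie above their productive isoforms, and the other genes with both lie below.

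A premature-stop isoform was the most abundant isoform of 250 of the 834 genes, and 84 of the 250 also had a productive isoform in the table. The share of a gene's isoform mean in premature-stop isoforms had a median of 24.4%, with quartiles of 10.4% and 60.8%. It was under 10% in 205 genes, from 10% to 50% in 381 and at least 50% in 248. In 164 genes every isoform in the table was a member. In 178 genes the table held no productive isoform, yet 111 of them had a productive model among the 195235 models of the full, unquantified set. The 834 genes had a median summed mean of 46.2 and 3 isoforms, against 11.1 and 1 in coding genes without a member. The part of read depth in these counts was not tested.

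Among genes with a productive isoform and a summed mean of at least 50, the premature-stop share was highest in RPL37 (99.3%), MRPL42 of the mitochondrial ribosome (94.9%), RPS2 (94.5%), the topoisomerase TOP1 (89.0%) and C11orf58 (84.6%). The RPL37 and RPS2 shares may depend on how much of an isoform a read had to cover, which is not given. COMMD6 (81.7%), the mitochondrial kinase DGUOK (74.8%), the fetal globin HBG1 (72.8%) and the acid ceramidase ASAH1 (71.3%) followed. The TOP1 isoform stops 60 nt before its last junction, just past the limit of 55 nt, and has 92.7% of the leading frame. The C11orf58 isoform has a frame 211% as long as the leading productive one. Of all compared members, 26 had a frame longer than the leading productive frame. HBG1 and its near-identical neighbour HBG2 can exchange reads, so the HBG1 share is uncertain. The 2 HBG1 members had 166 and 162, against 63.4 for HBG1-201.

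Genes that act on RNA were read against the 16.9% of all coding genes with a member and the members' 5.95% of the isoform mean. Of 16 nonsense-mediated decay factors, 11 had isoforms in the table and only UPF3B had a member, with a mean of 7.95, a skipped exon of 44 nt and 52.6% of the gene's isoform mean. Of 10 exon junction complex genes 8 had isoforms in the table, and RBM8A alone had a member, with 45.8. Of 18 SR and related splicing factors 13 had isoforms in the table. The 3 genes with members were SRSF3 (18.5), SRSF2 (6.39) and SRSF1 (3.29), with 7.09%, 15.1% and 8.91% of their isoform means. The stops of the SRSF1 and SRSF2 members are those of the leading productive isoform, followed by a junction.

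hnRNP genes had 17 members in 8 of the 21 genes with isoforms and 14.9% of the list's isoform mean. HNRNPA2B1 held the most, 55.9 over 3 members or 59.9% of the gene, followed by HNRNPA1 with 44.6 over 4 (11.9%), HNRNPK with 24.8 over 4 (8.24%) and HNRNPC with 20.9 over 2 (17.6%). TIAL1 (20.1) and HNRNPM (7.46) had no productive isoform in the table, while HNRNPA3 had 15.6 (56.7%) and HNRNPDL 10.7 (18%). The HNRNPA3 member and the larger HNRNPC member retain introns and are 4611 and 3554 nt longer than the leading isoforms. In the polyamine list, members held 70.6% of the isoform mean, owing to OAZ1, beside SAT1 with 28.8 over 3 members (17.1%) and the spermine synthase gene SMS with 15.6 over 2 (36%).

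Members were found in more of the genes of the following lists than the 16.9% over all coding genes, without a test of that difference. Nuclear-encoded respiratory chain genes had 48 members in 33 of 76 genes with 3.79% of the isoform mean, and NDUFA3 had its only isoform, at 190, among them. Aminoacyl-tRNA synthetases and initiation factors had 32 members in 20 of 46 genes with 15.1%, most of it from EIF1, a start-codon selection factor, whose 2 members had 570 of 2193. Proteasome subunit genes had 22 members in 15 of 29 genes with 7.59%. The erythroid list, by contrast, had 3 members in 2 of 13 genes with 12.8%. The list of other lineages had 1 member, in 1 of only 3 genes with isoforms.

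Whether genes with premature-stop isoforms differ between WC and EV was asked of the gene counts, since only these exist per library. They hold all reads of a gene, productive isoforms included. Counts of 8716 genes were tested by edgeR (quasi-likelihood, adjusted by Benjamini-Hochberg), and rose or fell mean an adjusted p under 0.05 in EVs against WC. The filter on low counts kept 731 of the 834 genes. Of these 208 rose (28.5%) and 139 fell (19%), where over all genes tested 22.8% rose and 21.4% fell. Of 3328 tested coding genes with isoforms but no member, 550 rose (16.5%) and 680 fell (20.4%).

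Ribosomal protein genes move with this difference. All 45 of the ribosomal protein genes with a member that were tested rose, and over the whole list 77 of 78 rose and none fell by this test, with a median log2 fold change of 1.06. Without them, a choice made after seeing the data, 163 of 686 genes with a member rose (23.8%) and 139 fell (20.3%), against 521 (15.8%) and 680 (20.6%) of 3298 coding genes without one. The median log2 fold change was 0.06 in genes with a member, -0.15 in coding genes without one and -0.13 over all genes tested. Gene level differed too, with medians of 66.7 CPM and 23.4 CPM in genes with and without a member. The part of gene level in the counts of calls was not tested.

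Directions depend on the scaling. Scaled by library totals only, all genes had a median log2 fold change of -0.78 and genes with a member one of -0.60, so the latter stood 0.19 above the former under either scaling. Calls then came to 78 genes risen and 400 fallen, against 12.2% and 51.6% of all genes, and of the 347 calls made with TMM 217 remained in the same direction and 1 turned.

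The calls were also counted by the share of premature-stop isoforms in the gene. With a share under 10%, 93 of 184 rose and 21 fell (median log2 fold change 0.45). With 10% to 50%, 82 of 350 rose and 71 fell (median -0.01), and with at least 50%, 33 of 197 rose and 47 fell (median -0.24). The median gene level dropped along the same classes, from 175 to 65 and 27.3 CPM. Ribosomal protein genes are unequally spread over the classes, and without them the counts were 59 risen and 21 fallen of 150 (median 0.24), 73 and 71 of 341 (-0.03) and 31 and 47 of 195 (-0.24). A trend over the classes was not tested.

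**Figure D4:**
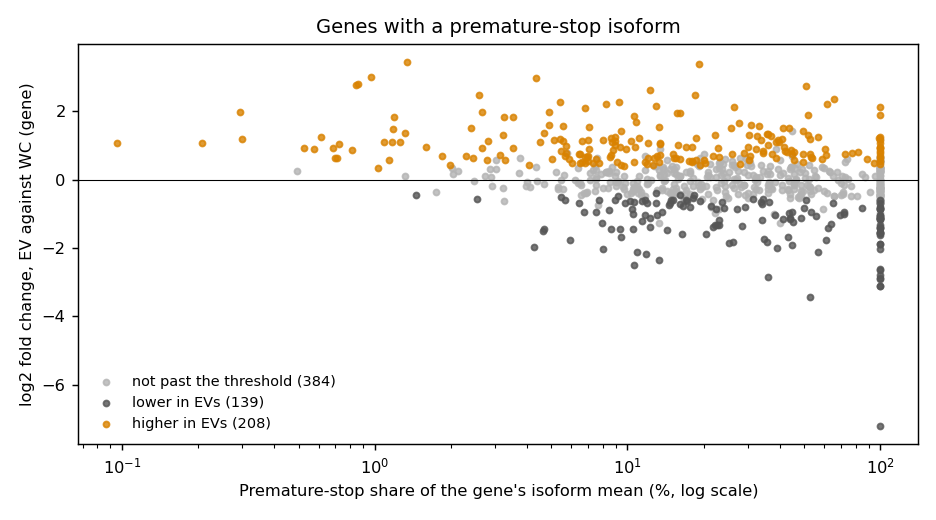
Share of the gene's isoform mean in premature-stop isoforms (log axis, %) against the log2 fold change of the gene's counts, EV against WC, for 731 genes. Colours mark 208 genes higher in EVs, 139 lower and 384 not past the threshold, and the column at the right edge holds genes in which every isoform was a member.

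As a share of all gene counts, the 834 genes held 21.6%, 21.5% and 21.2% in the WC and 21.3%, 21.4% and 21.2% in the EV libraries. The groups overlap, with means of 21.4% ± 0.248 and 21.3% ± 0.0978 (SD, n = 3 each, exact permutation test, two-sided p = 0.400, where 3 against 3 libraries cannot go below 0.1). Genes with a premature-stop share of at least 10% held 8.70% ± 0.0800 of WC counts and 7.23% ± 0.229 of EV counts (SD, n = 3 per group, the same exact test, p = 0.1). As a share of protein-coding counts the 834 genes held 38.3% ± 0.909 (WC) against 44.4% ± 0.474 (EV) (SD, n = 3 per group, the same exact test, p = 0.1). Ribosomal protein genes are part of these shares, which were not counted without them.

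Single genes moved in both directions. OAZ1 stood at 41.9, 49.3 and 47.1 CPM in WC and at 177, 162 and 178 CPM in EV libraries (CPM, the gene's count relative to the library's total, after TMM scaling). All 3 EV values lie above all WC values, with a log2 fold change of 1.90 (SE 0.18, edgeR adjusted p = 3.7e-09). Its isoforms summed to a mean of 493 normalised reads over all 6 libraries, while the gene had a mean of 46.1 CPM in WC and 172 CPM in EVs. These values differ in unit, and the isoforms and the genes were counted separately. GPX4 had 301, 257 and 218 CPM in WC and 354, 303 and 395 CPM in EV libraries, close but not overlapping. Its log2 fold change was 0.44 (SE 0.17, edgeR adjusted p = 0.034), which did not pass with the replicate as a block (0.053), with DESeq2 (0.19), with total-count scaling (log2 fold change -0.21) or without WC replicate 2 (0.16), WC replicate 3 (0.25) or EV replicate 3 (0.18). GPX4 also did not pass by edgeR without the filter on low counts (0.47) or with a minimum mean of 5 counts in a group (0.071). Of the other selenoprotein genes with a selenocysteine member, SELENOW rose by a log2 fold change of 0.91 (edgeR adjusted p = 0.0087), SELENOF fell by 1.04 (edgeR adjusted p = 0.00067), and SELENOP had 0.66 (edgeR adjusted p = 0.14). SELENOH did not pass the filter on low counts.

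The ribosomal protein genes with the most abundant members rose by different amounts. RPS2 had 3134, 2641 and 2567 CPM in WC and 4326, 3749 and 3600 CPM in EV libraries. Its log2 fold change of 0.49 (SE 0.13, edgeR adjusted p = 0.0027) turned to -0.17 with total-count scaling. Its edgeR adjusted p was 0.051 without WC replicate 2 and 0.2 without the filter on low counts. RPL37 had 3058, 2900 and 2758 CPM in WC and 4704, 7427 and 8077 CPM in EV libraries, with EV replicate 1 well below the other two (log2 fold change 1.21, SE 0.15, edgeR adjusted p = 1.1e-06). RPL12 had 1808, 1803 and 1757 CPM in WC and 4185, 4570 and 4675 CPM in EV libraries (log2 fold change 1.32, SE 0.12, edgeR adjusted p = 1.9e-09).

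RPL19, RPS13, RPL41, RPS27A and RPS21 had log2 fold changes of 0.85, 0.94, 1.09, 1.06 and 1.15, all past the threshold. RPS3 (0.74) and RPS6 (0.62) passed with TMM, but had 0.09 and -0.04 with total-count scaling. RPLP0 (0.50, edgeR adjusted p = 0.0042) did not pass with DESeq2 (0.099), without the filter on low counts (0.15) or without WC replicate 2 (0.054) or 3 (0.06). It had -0.15 with total-count scaling. With that scaling 51 of the 78 ribosomal protein genes rose and none fell, with a median of 0.39.

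EIF1, whose retained-intron isoform was the third most abundant member, did not pass the test. It had 1984, 1925 and 1815 CPM in WC and 1746, 1580 and 1840 CPM in EV libraries, which overlap (log2 fold change -0.15, SE 0.13, edgeR adjusted p = 0.35). With total-count scaling it passed as lower, at -0.81 (edgeR adjusted p = 2.5e-06). TOMM20, a mitochondrial import receptor, had 0.19 (edgeR adjusted p = 0.29), and -0.47 with total-count scaling (edgeR adjusted p = 0.0036). NDUFA3 rose by 0.64 (edgeR adjusted p = 0.0062), and had -0.02 with total-count scaling. Its edgeR adjusted p was 0.093 without EV replicate 3, 0.063 without WC replicate 3 and 0.12 without the filter on low counts. The gene ENSG00000124593, whose only isoform in the table was a member with a mean of 323, did not pass the filter on low counts.

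Among the genes with the highest premature-stop shares, COMMD6 rose by 0.80 (edgeR adjusted p = 0.00038), with 0.14 under total-count scaling. TOP1 rose by 0.60 (edgeR adjusted p = 0.014), and had -0.06 with total-count scaling. It did not pass with DESeq2 (0.089), without the filter on low counts (0.21) or without WC replicate 2 (0.1), WC replicate 3 (0.086) or EV replicate 3 (0.2). HBG1 had 110, 62.3 and 80.9 CPM in WC and 100, 171 and 160 CPM in EV libraries, which overlap. It rose by 0.75 (edgeR adjusted p = 0.0089), and had 0.09 with total-count scaling. HBG1 did not pass with DESeq2 (0.081), without the filter on low counts (0.051) or without WC replicate 2 (0.11), WC replicate 3 (0.053), EV replicate 2 (0.067) or EV replicate 3 (0.051). C11orf58 (0.15), MRPL42 (0.09), DGUOK (0.01) and ASAH1 (-0.37) did not pass, and DGUOK had only 2.74 to 9.25 CPM in any library. With total-count scaling C11orf58 (-0.50), MRPL42 (-0.57) and ASAH1 (-1.02) passed as lower, and DGUOK (-0.63) did not pass.

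At a mean of 50 CPM or more, the lowest p-values of risen genes went to genes in which premature-stop isoforms were minor. RPS3A had 26.1, 26.8 and 31.4 CPM in WC and 299, 296 and 315 CPM in EV libraries (log2 fold change 3.43, SE 0.18, edgeR adjusted p = 7.9e-14), while its member held 1.34% of its isoform mean. NACA, which binds nascent chains at the ribosome, rose by 2.97, TPT1 by 2.80, FAU, a ribosomal fusion gene, by 3.00 and RPS15A by 2.77, with premature-stop shares of 4.34%, 0.860%, 0.965% and 0.843%. The gene counts and the isoform means come from separate counting and can disagree. RPS3A isoforms summed to a mean of 2498 normalised reads over all 6 libraries, while the gene had a mean of 28.1 CPM in WC and 303 CPM in EVs. TPT1 isoforms summed to 2289 while the gene had 85.0 CPM in WC, whereas for RPS2 these were 3782 and 2781 CPM. The isoform means and the CPM differ in unit and in the libraries covered, so they compare only roughly. The paper places reads from regions where several genes overlap among the unassigned reads. How reads that match several places, such as a gene and its pseudogenes, were counted is not given in the sources used here. The levels and changes of genes with such a mismatch are therefore uncertain.

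Among fallen genes of 50 CPM or more SPN had a single isoform in the table, SPN-205, which was a member. SPN encodes the sialoglycoprotein CD43 and had 402, 460 and 502 CPM in WC and 49.4, 111 and 73.1 CPM in EV libraries (log2 fold change -2.60, SE 0.22, edgeR adjusted p = 6.4e-10). The groups are far apart, and SPN-205 ends at an annotated coding stop, 150 nt before a junction. The membrane protein gene DLK1 went from 258, 224 and 282 to 60.4, 50.9 and 54.8 CPM (log2 fold change -2.19), the cathepsin gene CTSB from 220 to 49.3 CPM at the mean (-2.12), the calcium-binding protein gene CALB1 from 166 to 39.4 CPM (-2.03) and the metalloprotease inhibitor gene TIMP1 from 882 to 308 CPM (-1.51). All 5 kept their call under total-count scaling. That scaling moves the median log2 fold change of all genes from -0.13 to -0.78, so it could hardly remove a lower call. The lowest point in the plot of share against change is ADAM17, a sheddase gene chosen here after its values were seen, with 7.90, 10.5 and 9.02 CPM in WC and no count in any EV library, so that its fitted fold change depends on the prior count. Members held 11.8% of the isoform mean of DLK1, 56.6% of CTSB, 8.03% of CALB1 and 4.64% of TIMP1.

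**Figure D5:**
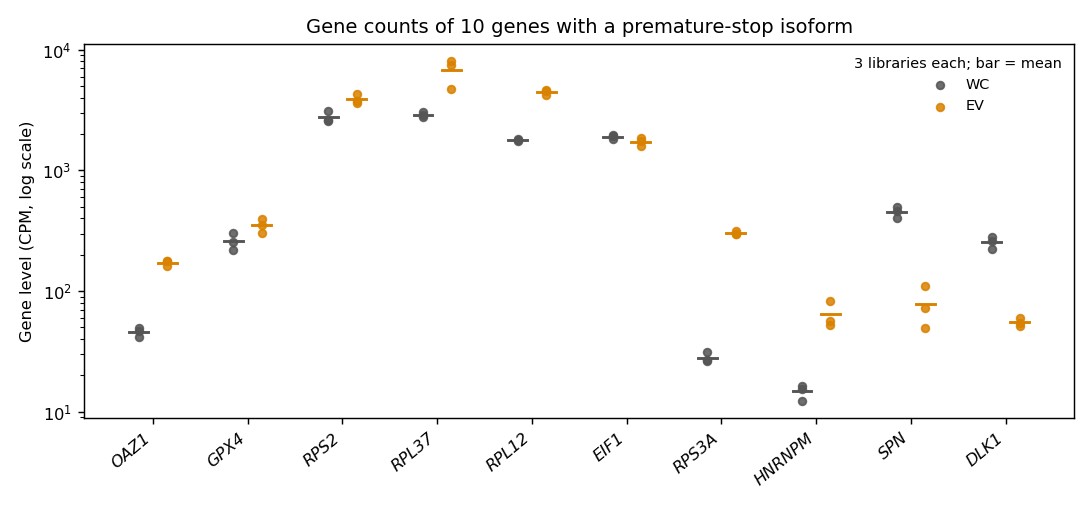
Gene counts in CPM (log axis) of 10 genes with a premature-stop isoform, 1 point per library and a bar at the mean of the 3 WC and the 3 EV libraries. OAZ1, RPS2, RPL37, RPL12, RPS3A, HNRNPM and, by a small margin, GPX4 lie higher in every EV library. SPN and DLK1 lie lower in every one, and EIF1 overlaps.

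The genes that act on RNA were read against the 22.8% of all tested genes that rose and the 21.4% that fell. UPF3B had -0.33 (edgeR adjusted p = 0.15), and -0.99 with total-count scaling (edgeR adjusted p = 0.00014). Of 14 tested decay factors 4 rose and 2 fell (median log2 fold change -0.19). RBM8A rose by 1.26 (edgeR adjusted p = 0.0069), which did not pass without EV replicate 2 (0.052) or EV replicate 3 (0.077) or with total-count scaling (0.14). Of 10 exon junction complex genes 1 rose and 2 fell (median 0.08). Among 16 tested SR genes 2 rose and 2 fell (median -0.04).

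The 2 risen SR genes both had a member, SRSF1 at 1.23 (edgeR adjusted p = 0.015) and SRSF2 at 0.75 (edgeR adjusted p = 0.027), with 5.53 and 17.7 CPM in WC. SRSF1 did not pass with DESeq2 (0.1), with total-count scaling (0.2, log2 fold change 0.58), without the filter on low counts (0.11) or without EV replicate 1 (0.16) or 3 (0.057). It did not reach the filter without any of the WC replicates. SRSF2 did not pass with DESeq2 (0.16), with total-count scaling (0.77, log2 fold change 0.09) or without the filter on low counts (0.25). Nor did it pass without EV replicate 1 (0.3), EV replicate 2 (0.05) or WC replicate 1 (0.056), 2 (0.091) or 3 (0.061). SRSF3 had 0.00 (edgeR adjusted p = 0.99), and passed as lower with total-count scaling at -0.65 (edgeR adjusted p = 0.0018).

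Of 25 tested hnRNP genes 10 rose and none fell with TMM, and 4 rose and 6 fell with total-count scaling (medians 0.39 and -0.27). Over all tested genes 22.8% rose and 21.4% fell with TMM, and 12.2% rose and 51.6% fell with total-count scaling. Among the 8 with a member, HNRNPM rose most, with 16.5, 12.3 and 15.4 CPM in WC and 56.2, 83.3 and 52.5 CPM in EV libraries (log2 fold change 2.11, edgeR adjusted p = 1.2e-07), a call that total-count scaling kept. HNRNPA3 rose by 1.25 (edgeR adjusted p = 0.0017), with EV values of 83.7, 229 and 203 CPM, and its adjusted p with total-count scaling was 0.063. HNRNPA1 rose by 0.45 (edgeR adjusted p = 0.012). This call was lost with DESeq2 (0.12), without the filter on low counts (0.35) or without EV replicate 1 (0.11), WC replicate 2 (0.072) or 3 (0.081).

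HNRNPDL rose by 0.52 (edgeR adjusted p = 0.024), which did not pass with DESeq2 (0.1) or without EV replicate 1 (0.19), WC replicate 1 (0.052), 2 (0.15) or 3 (0.091). The call was also lost by edgeR without the filter on low counts (0.37) or with a minimum mean of 5 counts in a group (0.058). Both HNRNPA1 and HNRNPDL turned to negative values with total-count scaling, -0.20 and -0.13. HNRNPA2B1 (0.33), HNRNPK (0.23), HNRNPC (-0.03) and TIAL1 (0.02) did not pass, and of these HNRNPC passed as lower with total-count scaling (-0.69, edgeR adjusted p = 0.0002). In the polyamine list 5 of 9 tested genes rose and 1 fell, OAZ1 among the former. SAT1 rose by 0.94 (edgeR adjusted p = 0.0034), which did not pass without EV replicate 1 (0.08) or with total-count scaling (0.33), and SMS had -0.29 (edgeR adjusted p = 0.27), which passed as lower with total-count scaling (-0.94, edgeR adjusted p = 0.00054).

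Respiratory chain genes with a member rose in 12 and fell in 2 of 30 tested cases, against 41 and 4 of 71 over the list. For synthetases and initiation factors the counts were 8 and 2 of 20, against 17 and 5 of 47, and for proteasome genes 2 and 0 of 14, against 5 and 0 of 29 by edgeR. Over all tested genes 22.8% rose and 21.4% fell with TMM. With total-count scaling 26 of 71, 23 of 47 and 17 of 29 genes of these lists fell, where 51.6% of all tested genes did. In the same order 17, 5 and 2 genes rose with that scaling, where 12.2% of all tested genes did.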

How the data were processed

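The authors called bases with Guppy, removed reads under 20 nt, mapped the rest to hg38 with minimap2 and used featureCounts with GENCODE v41. The deposited count of a gene in a library is raw, as the authors obtained it. The deposited signal per isoform is the authors' mean of normalised counts over all 6 libraries, after FLAIR collapsed and classified isoforms. Isoform models with exon coordinates and a productivity class were deposited too. How much of an isoform a read had to cover is not given in the sources used here. The authors' columns of isoform and gene fold changes and p-values were not used.

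Members followed the label rule. They and the gene lists were chosen with earlier results of these data known. Each member was compared with the productive isoform of the same gene that had the highest mean, exon by exon, and stop codons were read from hg38. Annotated introns, stop and selenocysteine codons came from GENCODE v44. Genes were tested with edgeR 4.0.16 (TMM, filterByExpr, robust quasi-likelihood fit, R 4.3.3), and DESeq2 1.42.0, RLE, total-count scaling, other filters, a replicate block and leaving out each library were alternatives. Of 68247 deposited lines of gene counts, 68201 genes remained after 1 line per identifier was kept. Named were the 20 most abundant members, the 10 genes with the highest premature-stop share, the 5 lowest p-values in each direction at 50 CPM or more and the members of 5 lists. Some items that these rules select are not reported here. Other genes were chosen after their values were seen. Per the paper the WC and EV library of each replicate specimen shared a flow cell, which pairs them, and the deviations of same-numbered libraries from their group means correlated at 0.062, 0.024 and 0.0044. P-values measure the spread between these libraries, and SDs and intervals do not cover PCR copies. Python 3.11.15 and pysam 0.24.0 were used.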

Additional observations from a re-analysis of the deposited data

How the results depend on the processing

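Of 731 tested genes with a premature-stop isoform, 208 were higher and 139 lower in EVs. Total-count scaling gave 78 and 400, no expression filter gave 131 and 184, an adjusted p under 0.01 with a log2 fold change of at least 2 gave 19 and 18, and genes with a premature-stop share of at least 10% gave 115 and 118, so that lower calls outnumbered higher ones in all of these but the stricter threshold. Each of these settings differs from the main one in the scaling, the filter, the threshold or the set of genes. What moved the counts within a setting was not tested. Without ribosomal protein genes, an alternative chosen after seeing the data, the counts were 163 and 139. With the replicate block, which pairs the libraries of a specimen, the counts were 197 and 134, 325 of 347 calls were kept, and of the named genes only GPX4 lost its call (adjusted p = 0.053). DESeq2 gave 153 and 135. Of 34 named genes with a call, 16 lost it under at least 1 alternative fit. Leaving out each library gave 154 (without WC replicate 2) to 195 genes higher and 117 to 159 lower. The difference in the share of gene counts, EV minus WC, was -0.141 percentage points and turned to 6.09 when only protein-coding counts were used. The median exon difference of -1 became -0.500 against the median of all productive isoforms of the gene and 0 with annotated isoforms only. Genes led by a premature-stop isoform fell from 250 to 129 among isoforms with a mean of at least 10 and to 73 among annotated ones. The share of isoform abundance fell from 5.95% to 2.61% with annotated isoforms only, and was 5.26% without RPS2-215, an alternative chosen after seeing the data. The median length difference ran from 76.5 to 91.0 nt under its alternatives. Isoforms have 1 pooled mean, so no replicate could be left out for them.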
